A study of Mus musculus with 24 samples.

Results

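The data compared 2 forms of p65/RelA, a DNA-binding subunit of the transcription factor NF-kB, in DA1-3B Bcr-ABL+ cells, a mouse leukaemia line of strain C3H eOuJ. One group of 4 arrays came from cells transfected with p65/RelA D361E, the full-length protein with aspartate 361 replaced by glutamate, which the study describes as unable to be cleaved. The other 4 arrays came from cells transfected with p65/RelA p1-361, the N-terminal fragment that ends at residue 361. Members were taken by the transfection label, which gave 8 of the 24 arrays in the series. The other 16 arrays, 4 per group, were the void plasmid (VOID), wild-type p65 (WT), p363-549 for the C-terminal end, and p1-361 with p363-549. All groups share the cell line with its Bcr-ABL oncogene, the total RNA and the same medium with serum. The labels name no promoter for the plasmids, no transfected fraction and no separate cultures, so a p-value here measures only how these samples vary, which may be technical.

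p65 carries a Rel homology domain near its N-terminus that binds DNA, pairs with other Rel proteins and is held by the IkB inhibitors. Its C-terminal part holds the transactivation domain, which recruits coactivators to target promoters. A fragment that ends before that domain can keep DNA binding without the activating part. In blood cells NF-kB is known for driving chemokines, cytokines, survival genes and its own inhibitors, among them IkB-alpha and A20. Caspases are proteases that cut after aspartate residues, and a change from aspartate to glutamate removes such a site.

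Expression was read as the Cy3 signal of 1-colour arrays, on a log2 scale on which 0 is the array's own 75th percentile. A difference below is the D361E mean minus the p1-361 mean on that scale, with its standard error (SE) and 4 arrays per group. Precision is limited by the number of arrays. Over the 8 arrays the 75th percentile lay between 642.7 and 1021 units of signal, between 49.6% and 53.6% of spots were well above background, and no spot was saturated. The p1-361 replicate 4 array, whose title starts with 22, stood apart from its group. Its deviations over all genes correlated with those of the other 3 p1-361 arrays at -0.44, against 0.12 to 0.21 for each of these 3. The latter values are taken against means that include replicate 4. Replicates 1 to 3 correlated slightly or clearly more with p363-549, at 0.29, 0.22 and 0.31. This is a description over genes, which share the array. D361E replicate 4 also had a negative value, -0.20, against 0.25 to 0.64 for the other D361E arrays. D361E replicates 1 and 3 correlated slightly more with p1-361, at 0.31 and 0.30, than with their own group, at 0.26 and 0.25. The counts of called genes and the called genes named below are therefore given with all arrays and without p1-361 replicate 4; values of other genes and lists are from all arrays unless stated.

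For some genes, chosen after their values were seen, the arrays titled 22, 23 and 24 read unlike the replicates 1 to 3 that share their label. Actg2 read -3.58, -3.18 and -3.71 on p1-361 replicates 1 to 3 and -1.57 on replicate 4, -2.26, -1.97 and -2.56 on p363-549 replicates 1 to 3 and -4.57 on replicate 4, and -4.54, -5.04 and -5.69 on the arrays of both fragments and -3.43 on their replicate 4. Among the 3 fragment labels, each of these replicate 4 arrays was for this gene nearest to the replicates 1 to 3 of another label, p363-549 for title 22, both fragments for title 23 and p1-361 for title 24. Podnl1 read -2.34, 0.33 and 0.67 on titles 22, 23 and 24, and Trpc6 read 0.55, -2.98 and 0.82. For Trpc6 title 22 lay within its own label, whose replicates 1 to 3 read 0.52, 0.68 and 0.08. Titles 23 and 24 lay outside theirs for this gene. Over all genes, 4 of 9 arrays of replicates 1 to 3 correlated best with their own fragment group, each left out of its mean. Their own-group correlations were 0.79, 0.66 and 0.03 for both fragments, 0.23 to 0.33 for p1-361 and 0.18 to 0.31 for p363-549. Title 22 correlated at -0.22 with p1-361, 0.12 with p363-549 and 0.05 with both fragments. Title 23 correlated with these at -0.45, -0.67 and 0.70, and title 24 at 0.01, -0.28 and 0.18. The labels do not settle whether these 3 titles were exchanged, so every array is used under its label and p1-361 replicate 4 means the array so labelled. Without the 3 arrays 86 genes were higher and 70 lower in D361E, all 26 genes called with all arrays among them.

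Of 15059 genes tested with limma, 18 were higher in D361E (0.12%) and 8 were lower (0.0531%) at an adjusted p under 0.05. The higher genes included Hif1a, the oxygen-regulated transcription factor, Prkd3, the protein kinase D3, the inhibitory myeloid receptor gene Pilra, the chemokine gene Ccl3, Acod1, whose enzyme makes itaconate, and Tnfaip3, which encodes A20. The lower genes included Trpc6, a cation channel, and Igsf5, an immunoglobulin superfamily member. Without p1-361 replicate 4, 21 genes were higher (0.139%) and 20 lower (0.133%). 22 genes passed both ways, 14 higher and 8 lower. P2rx4, C1qtnf1, Tnfaip3 and Ppp1r27 passed with all arrays only, and 19 genes passed only without that array. All 45 genes that passed either way had the same sign in both fits. In such whole-culture RNA, fewer cells of a type and less RNA per cell cannot be told apart.

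All 26 genes called with all arrays had D361E arrays that did not overlap with the p1-361 arrays. Over all genes the groups did not overlap for 541 genes (3.59%), 314 with D361E above and 227 with D361E below. With 4 arrays against 3 the number was 1485 (9.86%). Unadjusted p was under 0.05 for 636 genes, and for 968 without p1-361 replicate 4. The median difference over all genes was -0.01, and -0.03 without that array. The median standard deviation of a gene was 0.283 among the D361E arrays and 0.285 among the p1-361 arrays, or 0.23 without replicate 4.

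**Figure D1:**
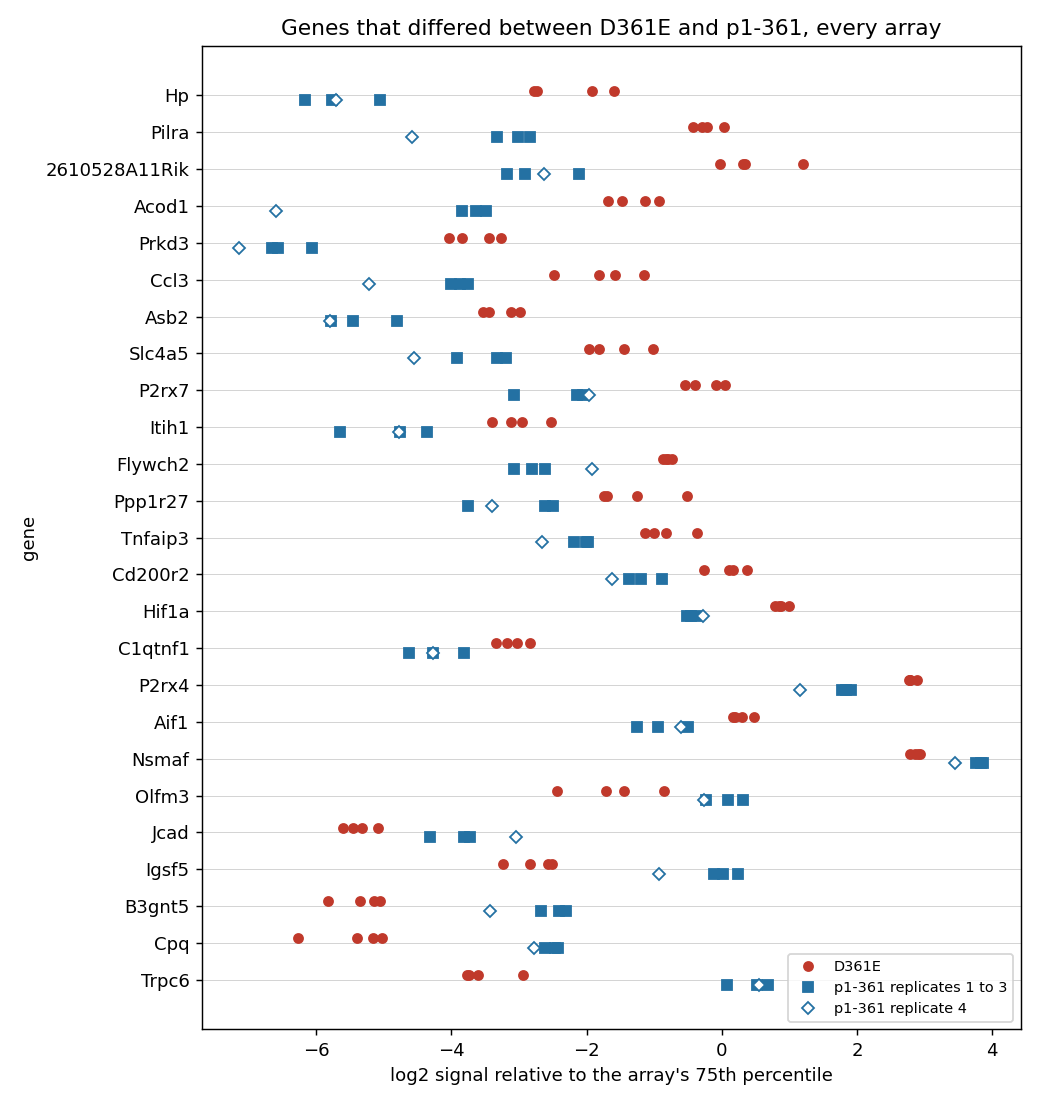
Log2 signal relative to the array's 75th percentile (x axis) of 25 of the 26 genes that differed between D361E and p1-361 with all arrays (y axis), with 1 point per array. Circles are the 4 D361E arrays, filled squares p1-361 replicates 1 to 3 and open diamonds p1-361 replicate 4; in each of the genes drawn the circles lie wholly to one side of the squares and diamonds.

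The 6 arrays of each of 4 runs of title numbers held 1 array of either group, and 2 slides held 1 of each. Neither of these slides held p1-361 replicate 4. The sign of the difference was kept by 26 of 26 called genes in each run and each of the 2 slides. This was fixed beforehand, since in all 26 genes the D361E and p1-361 arrays did not overlap. With the slide as a fixed block 9 genes were higher and 6 lower, all of them among the 26, and the calls of Itih1, Trpc6, Acod1, Aif1, C1qtnf1, P2rx4, Ppp1r27, Tnfaip3, P2rx7, Slc4a5 and Jcad ended. With the runs as a fixed block 47 were higher and 29 lower, all 26 included. A single array also moved the count. Without D361E replicate 2, 7 genes were higher and 6 lower, and without p1-361 replicate 3 these numbers were 9 and 6. Without D361E replicate 4, 11 were higher and 8 lower. Hp, Pilra, 2610528A11Rik, Prkd3, Asb2, Flywch2, Hif1a, B3gnt5, Igsf5, Jcad, Olfm3 and Nsmaf were among the genes that passed without any one of the 8 arrays. P2rx4 missed the test without D361E replicate 1, 2, 3 or 4 and without p1-361 replicate 1, 2, 3 or 4. C1qtnf1 passed only without p1-361 replicate 2, and Tnfaip3 passed only without D361E replicate 1. Acod1 missed the test without any one D361E array. Trpc6 missed it without D361E replicate 1, 2 or 3 and without p1-361 replicate 1, 2 or 3. Itih1 missed it without D361E replicate 1, 2 or 4 and without p1-361 replicate 3. Cd200r2 missed it without D361E replicate 1, 2 or 3 and without p1-361 replicate 3, and Cpq without D361E replicate 1 or 2 and p1-361 replicate 2 or 3. P2rx7 and Slc4a5 missed it without D361E replicate 2 or 4 and without p1-361 replicate 3, and Ppp1r27 also without p1-361 replicate 4. Aif1 missed it without D361E replicate 2 and without p1-361 replicate 2 or 3, and Ccl3 without D361E replicate 2 or 3. The adjusted p of these lost calls ran from 0.0502 for Itih1 without D361E replicate 4 to 0.228 for C1qtnf1 without p1-361 replicate 1, and each kept its sign. Normexp background correction left 8 higher and 4 lower and ended 15 of the 26 calls: Hp, Prkd3, Ccl3, Slc4a5, Asb2, Itih1, Ppp1r27, Tnfaip3, Cd200r2, C1qtnf1, P2rx4, Cpq, B3gnt5, Jcad and Nsmaf. The size of these 15 differences was then between 0.52 for Jcad and 1.52 for Hp on the log2 scale.

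The transfected gene was read by a single Rela probe at chr19:5648070-5648129 (mm9), starting 2648 bases into the transcript. It may lie outside the transfected sequence and so cannot serve as a check of the transfection. Rela read 4.62, 4.79, 4.66 and 4.88 on D361E replicates 1 to 4 and 4.80, 4.73, 4.82 and 4.88 on p1-361 replicates 1 to 4. The groups overlapped, with a difference of -0.07 ± 0.10 (SE; limma adjusted p = 1). The other subunits did not pass either: Relb, the partner of the alternative pathway, differed by 0.40 ± 0.35, Nfkb1 by -0.23 ± 0.20 and Nfkb2 by 0.00 ± 0.26. Rel was not well above background on all arrays of any group. Abl1 and Bcr, the genes joined in the fusion oncogene, differed by -0.07 ± 0.20 and -0.26 ± 0.19 and did not pass.

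Among the inhibitors and feedback genes of NF-kB, 1 of 13 measured members was higher in D361E, beside 0.12% of all genes, none was lower, and 12 did not pass. Tnfaip3 encodes A20, a ubiquitin-editing enzyme that shuts down NF-kB signalling. It read -1.13, -0.82, -1.00 and -0.36 on the D361E arrays and -2.19, -1.98, -2.01 and -2.66 on the p1-361 arrays. The lowest D361E array lay above the highest p1-361 array. Tnfaip3 was higher by 1.38 ± 0.27, or 2.61-fold (limma adjusted p = 0.0282). Without p1-361 replicate 4, its lowest array, the difference was 1.23 and missed the test (adjusted p = 0.0826). D361E was above VOID by 1.79 for this gene (adjusted p = 0.000984), and p1-361 by 0.41 (adjusted p = 0.853); these values share the VOID arrays. The WT mean was -0.28, above both forms.

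Nfkbia, which encodes the inhibitor IkB-alpha, was among the brighter genes of the array. Its D361E arrays read 5.09, 5.11, 4.67 and 4.79, and its p1-361 arrays 4.33, 4.01, 3.73 and 2.67. Every D361E array lay above every p1-361 array, and replicate 4 was the lowest. The difference of 1.23 ± 0.29 missed the test over all genes (limma adjusted p = 0.127), and it was 0.89 without replicate 4 (adjusted p = 0.237). Nfkbie and Tnip1, an IkB protein and a binding partner of A20, differed by 0.21 ± 0.20 and 0.14 ± 0.15. The median of the 13 members was 0.14 and 10 of 13 were positive. The arrays did not overlap for 2 of 13 (15.4%), Tnfaip3 and Nfkbia, beside 3.59% of all genes. No member passed without p1-361 replicate 4.

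The promoters of Tnfaip3, Nfkbia and Ltb, a tumour necrosis factor family ligand gene described below, are shown because these 3 genes had D361E arrays wholly above the p1-361 arrays and hold a match to the kappaB consensus, the motif NF-kB binds. The lines give the 150 bases before the start site from RefSeq (GRCm38.p6), 5′ to 3′ on the gene's strand, with matches to the 10-base kappaB consensus in capitals. The stretches are chr10:19015411-19015560 for Tnfaip3, chr12:55492648-55492797 for Nfkbia (both minus strand) and chr17:35194357-35194506 for Ltb (plus strand).
Tnfaip3: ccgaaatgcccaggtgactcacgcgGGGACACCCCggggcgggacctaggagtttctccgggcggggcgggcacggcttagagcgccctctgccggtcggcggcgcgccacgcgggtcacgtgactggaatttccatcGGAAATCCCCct
Nfkbia: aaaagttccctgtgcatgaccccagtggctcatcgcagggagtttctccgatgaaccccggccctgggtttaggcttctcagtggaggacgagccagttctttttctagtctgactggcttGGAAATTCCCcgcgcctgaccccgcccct
Ltb: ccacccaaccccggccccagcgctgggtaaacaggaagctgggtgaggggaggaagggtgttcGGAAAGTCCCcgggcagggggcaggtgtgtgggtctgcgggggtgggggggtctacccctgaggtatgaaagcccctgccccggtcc

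The consensus was searched on both strands from 250 bases before to 50 bases after the start site. Tnfaip3 had 2 start sites. The one shown held 2 matches, 1 on each strand, which begin 125 and 12 bases before it, and the other held none. Nfkbia and Ltb held 1 match each, beginning 29 and 87 bases before their start sites. Lta, the neighbour of Ltb, also had non-overlapping arrays, was examined and held no match. The 3 genes shown were picked for their matches, and Nfkbia and Ltb missed the test. Over all 32851 promoter windows 4.51% held a match, and 6.09% of the 9612 tested genes with a window had one. Of the 18 genes higher in D361E 16 had a window and 1 of them, Tnfaip3, held a match (6.25%). The windows of Acod1, Ccl3 and Hif1a held none. The share among the called genes was therefore near that of all tested genes. A match is a description of these letters, and 3 of the 8 lower genes had a window, with no match.

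Of the effector genes known as NF-kB targets, 3 of 41 measured members were higher in D361E, none was lower and 38 did not pass, with and without p1-361 replicate 4, beside 0.12% and 0.139% of all genes higher. The 3 were Acod1, Ccl3 and Hif1a. 28 of 41 were positive, with a median of 0.23 (0.24 without replicate 4), beside -0.01 over all genes. The arrays did not overlap for 7 of 41 (17.1%), beside 3.59% of all genes, and for 10 of 41 (24.4%) without replicate 4, beside 9.86%. The list of 65 was chosen with earlier results of these data known, so its counts are a description.

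Acod1 makes the metabolite itaconate in activated macrophages. It read -1.69, -1.13, -0.93 and -1.48 on the D361E arrays and -3.84, -3.49, -3.63 and -6.59 on the p1-361 arrays. The p1-361 replicate 4 value was the only one of the 8 not well above background, far below the next array of its group. Acod1 was higher in D361E by 3.08 ± 0.59 (limma adjusted p = 0.0252). Without that array the difference was 2.34 ± 0.49 and passed narrowly (adjusted p = 0.0475). No VOID array was well above background for Acod1, and all 4 WT arrays were. D361E was at least 12.3-fold above VOID (adjusted p = 5.4e-05). p1-361 did not pass against VOID with all arrays (adjusted p = 0.194) and was at least 2.42-fold above it without replicate 4 (adjusted p = 0.00754).

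Ccl3 encodes the chemokine MIP-1-alpha, which draws monocytes. The D361E arrays read -1.81, -1.15, -1.58 and -2.48 and the p1-361 arrays -3.87, -3.75, -4.00 and -5.22, with no overlap. It was higher in D361E by 2.46 ± 0.44 (limma adjusted p = 0.0127), and by 2.12 ± 0.44 without replicate 4 (adjusted p = 0.0439). The VOID mean of -2.76 lay between them. D361E was above VOID by 1.00 (adjusted p = 0.669) and p1-361 below it by 1.46 (adjusted p = 0.175), and neither passed.

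4 of the 41 NF-kB targets had groups that did not overlap but missed the test, and they are named after their values were seen. Ltb, a lymphotoxin gene, read 4.73, 4.90, 4.80 and 5.02 on D361E and 3.97, 4.09, 4.08 and 3.90 on p1-361. The spread within each group was small, and the difference was 0.85 ± 0.24 (limma adjusted p = 0.297). Lta, its neighbour in the genome, differed by 1.65 ± 0.47 (adjusted p = 0.315), with 3 of 4 p1-361 arrays above background. Ccl5, a chemokine that attracts T cells, differed by 1.53 ± 0.35 (adjusted p = 0.0998). Cd44, the hyaluronan receptor gene, differed by 0.41 ± 0.20. Icam1, Il6 and Tnf, textbook NF-kB targets, differed by 0.80 ± 0.31, 0.81 ± 0.35 and 0.37 ± 0.30 and did not pass.

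**Figure D2:**
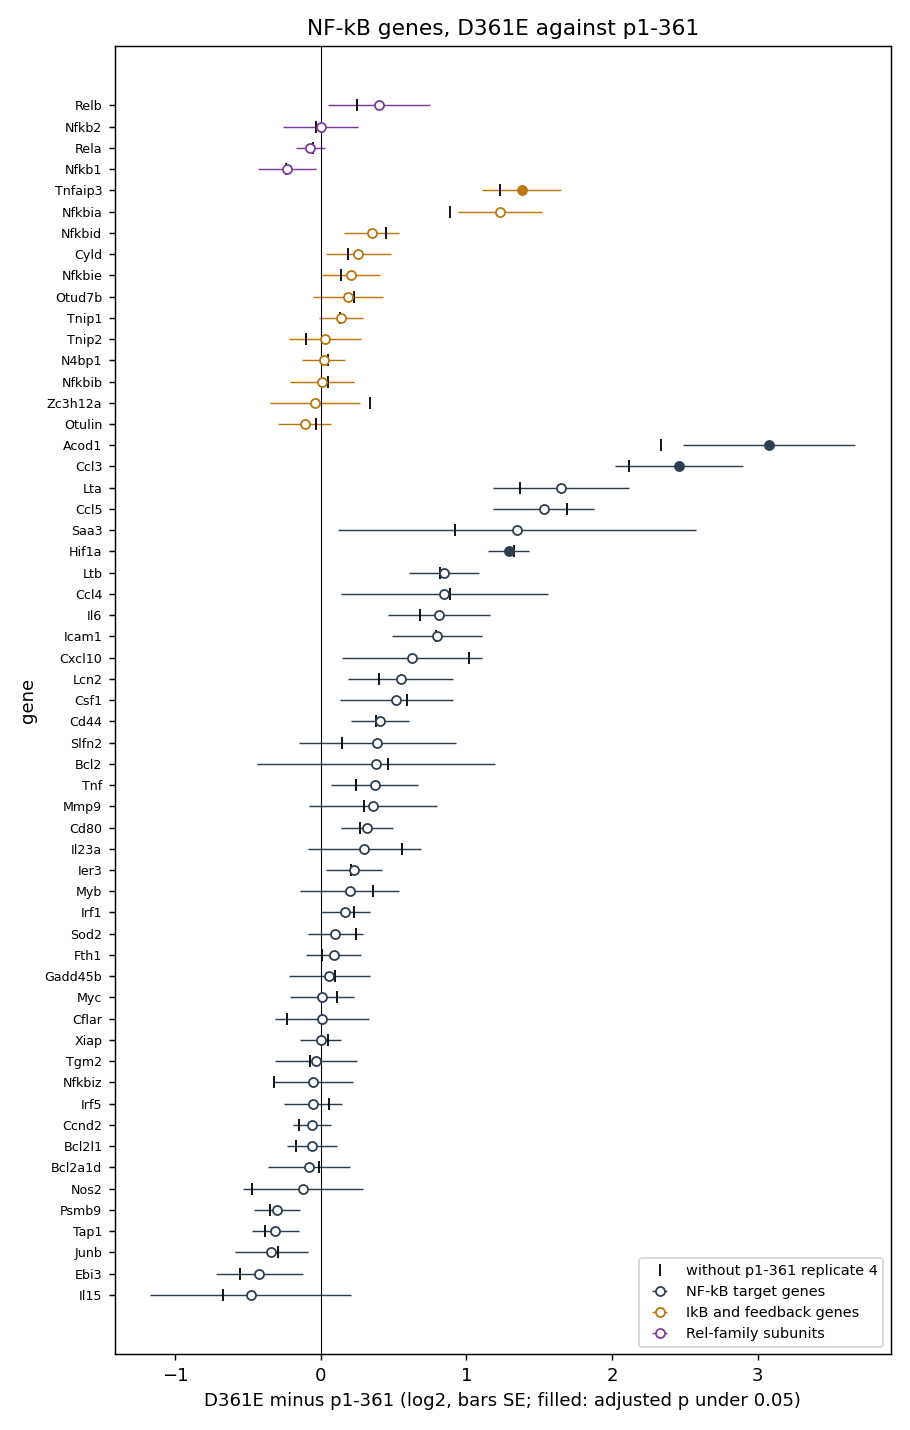
Difference between D361E and p1-361 (x axis, log2, circles with SE bars, 4 arrays per group) for the measured Rel-family subunits, feedback genes and NF-kB target genes (y axis), where filled circles passed the test over all genes and vertical ticks give the value without p1-361 replicate 4. Acod1, Ccl3, Hif1a and Tnfaip3 are filled, the subunits lie close to 0, and Nfkbiz, on 2 of the lists, is drawn once.

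Of 34 measured chemokines and cytokines 1 was higher, Ccl3, beside 0.12% of all genes, none was lower and 33 did not pass. The median was 0.33 (0.27 without replicate 4), and the arrays did not overlap for 7 of 34 (20.6%), beside 3.59% of all genes, and for 11 of 34 (32.4%) without replicate 4, beside 9.86%. The receptors, adaptors and kinases upstream of NF-kB had no called member among 37 and a median of 0.03. The coactivators and corepressors that act with p65 had none among 38 and a median of -0.01, with no member whose arrays did not overlap. The interferon-stimulated genes had none among 38 (median -0.02) and the cell death and survival genes none among 34 (median -0.01). The immediate early and ERK feedback genes had none among 23, and 4 of the 23 were positive (median -0.15).

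Hif1a varied little within either group. It read 1.00, 0.79, 0.88 and 0.85 on the D361E arrays and -0.46, -0.52, -0.38 and -0.28 on the p1-361 arrays. The groups lay far apart relative to their standard deviations of 0.09 and 0.11. The difference was 1.29 ± 0.14, or 2.44-fold (limma adjusted p = 3.63e-05), and 1.33 ± 0.15 without replicate 4 (adjusted p = 6.71e-05). The probe lies at chr12:75047269-75047329 of mm9 and begins at base 3512 of the transcript. A further Hif1a probe gave 2.28 (adjusted p over probes = 0.0488), and 1.98 without replicate 4 (adjusted p = 0.118). VOID and WT means were -0.20 and -0.26, near p1-361.

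Hif1a is also on the list of glycolysis and hypoxia genes, whose products take up glucose, break it down and answer low oxygen. Of 37 measured members Hif1a was higher, beside 0.12% of all genes, none was lower and 36 did not pass. Yet 30 of the 37 were negative, with a median of -0.33, and -0.65 without replicate 4. The latter fit kept D361E replicate 4, the array of the same run of title numbers. Within runs 1 to 4 the list median was -0.24, -0.50, -0.43 and -0.07, and on the 2 shared slides -0.42 and -1.43. The summed level of the list overlapped, from 1210 to 2240 on the D361E arrays and from 1220 to 3180 on the p1-361 arrays. The glucose transporter gene Slc2a1 had the lowest value, -1.12 ± 0.82 (adjusted p = 1), and Ankrd37 differed by -0.82 ± 0.82. Slc16a3, which exports lactate, lay on the other side at 0.67 ± 0.17 (adjusted p = 0.219), and with Hif1a it was 1 of 2 members whose arrays did not overlap (5.41%), beside 3.59% of all genes. The arrays did not overlap for 10 of 37 (27%) without replicate 4, beside 9.86% of all genes.

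**Figure D3:**
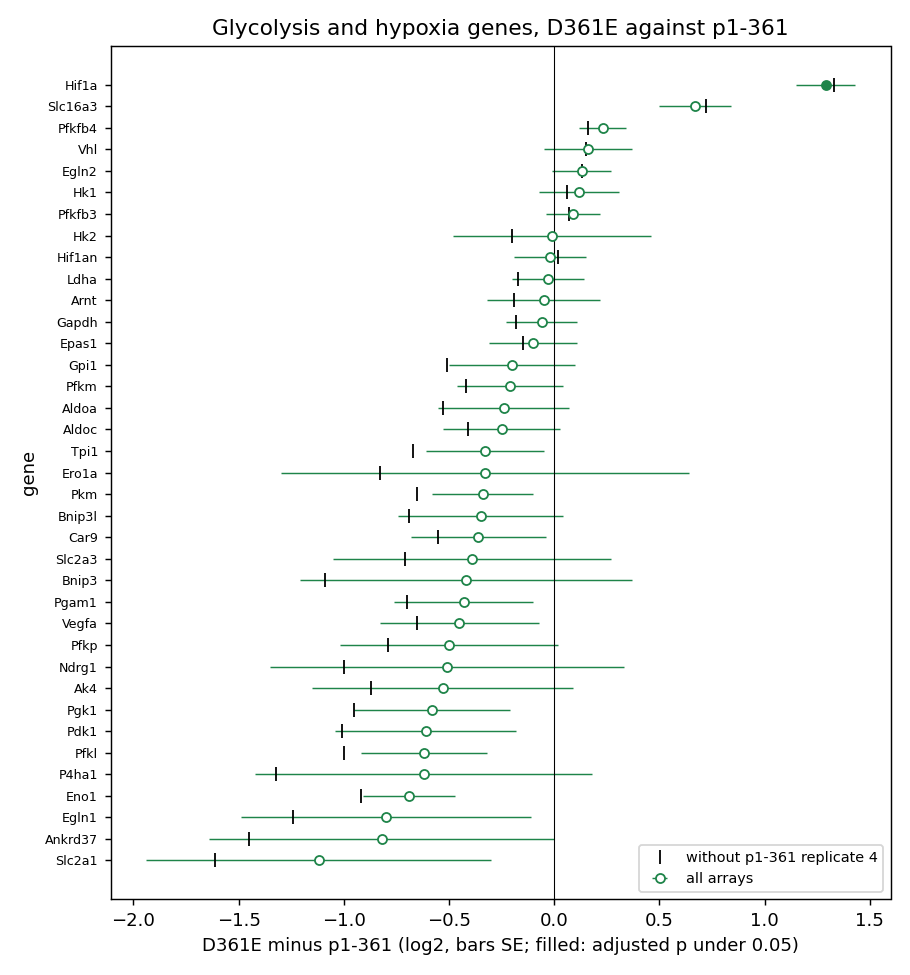
Difference between D361E and p1-361 (x axis, log2, circles with SE bars, 4 arrays per group) for 37 glycolysis and hypoxia genes (y axis), where vertical ticks give the value without p1-361 replicate 4. Hif1a, filled because it passed the test, lies at 1.29, while 30 of the 37 genes lie below 0 and most ticks lie further left than their circles.

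Prkd3 encodes protein kinase D3, which acts downstream of diacylglycerol. It read -4.04, -3.44, -3.84 and -3.26 on the D361E arrays and -6.07, -6.66, -6.57 and -7.14 on the p1-361 arrays. All D361E arrays and no p1-361 or VOID array were well above background, so the fold is a bound. It was at least 2.25-fold higher in D361E, from the group mean against the lowest signal measured above background on each p1-361 array, or the probe's own signal where that is higher (limma adjusted p = 7.03e-06). Without replicate 4 it was at least 2.18-fold higher (adjusted p = 2.14e-05). With normexp background correction the difference was 0.97 (adjusted p = 1). WT was at least 1.82-fold above VOID (adjusted p = 4.55e-06).

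Hp encodes haptoglobin, the plasma protein that binds free haemoglobin. The D361E arrays read -2.73, -1.92, -2.78 and -1.60, and the p1-361 arrays -5.77, -5.05, -6.16 and -5.71. No p1-361 array was well above background, and Hp was at least 5.9-fold higher in D361E (adjusted p = 0.000777), or at least 5.72-fold without replicate 4 (adjusted p = 0.00256). Only D361E had Hp well above background on all 4 of its arrays. The gene thus entered the test through the group where it is high, and its fold and p carry that choice. With normexp the difference was 1.52 on the log2 scale and missed the test (adjusted p = 0.495), so the bound holds only for the background handling used here. The VOID and WT means, -4.20 and -4.42, lay between the forms, and 2 of 4 VOID arrays were above background. Neither form passed against VOID (adjusted p = 0.0604 for D361E and 0.209 for p1-361).

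Pilra read -0.42, 0.03, -0.29 and -0.22 on the D361E arrays and -3.33, -2.84, -3.02 and -4.58 on the p1-361 arrays, with replicate 4 the lowest. The difference was 3.22 ± 0.48, or 9.3-fold (limma adjusted p = 0.00179), and 2.84 ± 0.48 without replicate 4 (adjusted p = 0.00957). A pair of further Pilra probes gave 2.69 and 3.44 (limma adjusted p over probes = 0.0483 and 0.00457). Without replicate 4 they gave 2.31, which missed the test, and 3.17 (adjusted p = 0.118 and 0.0205). 2610528A11Rik, given here by its RIKEN name, read 0.34, 0.31, 1.20 and -0.03 on D361E and -3.18, -2.91, -2.11 and -2.63 on p1-361. It differed by 3.16 ± 0.43 (adjusted p = 0.000777), and by 3.19 without replicate 4, which lay within its group for this gene. Both genes were above VOID in D361E and in WT and did not pass against VOID in p1-361.

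P2rx7 and P2rx4 encode ATP-gated ion channels, and their probes begin 44789 bases apart on mm9 chromosome 5. P2rx7 read -0.40, -0.08, -0.54 and 0.05 on D361E and -2.05, -2.14, -3.08 and -1.96 on p1-361. It was higher by 2.06 ± 0.36 (limma adjusted p = 0.0117), and by 2.18 without replicate 4 (adjusted p = 0.0154). D361E differed from VOID by 0.50 (adjusted p = 1) while p1-361 was below VOID by 1.56 (adjusted p = 0.0479). A further P2rx7 probe differed by 0.69 and did not pass. P2rx4 read 2.77, 2.78, 2.89 and 2.79 on D361E and 1.78, 1.91, 1.84 and 1.16 on p1-361, a difference of 1.13 ± 0.23 (adjusted p = 0.0475). Without replicate 4 it missed the test at 0.96 (adjusted p = 0.114), although the groups still did not overlap, and a further P2rx4 probe differed by 0.58.

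The remaining higher genes span transport, ubiquitin transfer and secreted proteins. Slc4a5, a sodium bicarbonate cotransporter gene, was higher by 2.19 ± 0.39 (limma adjusted p = 0.0117), and by 1.92 without replicate 4 (adjusted p = 0.0395). A further Slc4a5 probe missed the test, at 2.12 (adjusted p over probes = 0.0957), and at 1.84 without replicate 4 (adjusted p = 0.197). Asb2, the substrate-binding part of a ubiquitin ligase, was at least 2.92-fold higher (adjusted p = 0.00206), and Itih1, a heavy chain of the inter-alpha-trypsin inhibitor, at least 3.24-fold (adjusted p = 0.0171). No p1-361 array was well above background for either. Itih1, like Hp, was well above background on all arrays of D361E alone, so it entered the test through the group where it is high. Without replicate 4 the bounds were 2.83-fold and 3.18-fold (adjusted p = 0.0122 and 0.0333), and with normexp the differences were 0.93 and 0.73 (adjusted p = 1 for both), under these bounds. Flywch2 read between -0.87 and -0.74 on D361E and between -3.07 and -1.92 on p1-361, a difference of 1.79 ± 0.21 (adjusted p = 7.68e-05). Its p1-361 replicate 4 was the array nearest to D361E, and the difference was 2.02 without it. Ppp1r27, a protein phosphatase subunit gene, Aif1, a calcium-binding protein of macrophages, and C1qtnf1, a secreted protein, were higher by 1.76, 1.11 and 1.15. Aif1 was higher by 1.18 without replicate 4 (adjusted p = 0.0137), and Ppp1r27 and C1qtnf1 missed the test (adjusted p = 0.0602 and 0.0686).

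Cd200r2, a member of the Cd200 receptor family listed among genes that answer BCR-ABL or STAT5, differed from the other higher genes in its place relative to VOID. It read 0.11, 0.37, 0.17 and -0.26 on D361E, -0.89, -1.19, -1.37 and -1.63 on p1-361, and 2.32, 1.93, 2.66 and 2.18 on VOID. Both forms were below VOID, D361E by 2.18 (limma adjusted p = 3.26e-05) and p1-361 by 3.54 (adjusted p = 3.89e-08), and D361E was above p1-361 by 1.37 ± 0.25 (adjusted p = 0.0142), or by 1.25 without replicate 4 (adjusted p = 0.0489). It was the 1 called gene of 41 measured on that list, beside 0.12% of all genes, and the list median was -0.04.

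Trpc6, a calcium-permeable channel gene, had the largest difference between group means among the genes called with all arrays. It read -3.74, -3.60, -3.77 and -2.94 on the D361E arrays and 0.52, 0.68, 0.08 and 0.55 on the p1-361 arrays. All 8 arrays were well above background, and the difference was -3.97 ± 0.73, a 15.7-fold lower signal in D361E (limma adjusted p = 0.017). Without p1-361 replicate 4 it was -3.94 (adjusted p = 0.0395). The SE is shared by all groups, and the p363-549 arrays ran from -2.98 to 0.22. VOID and WT means were -1.41 and -0.54, between the forms, and neither form passed against VOID.

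Igsf5 read -2.57, -2.51, -2.84 and -3.23 on D361E and 0.02, 0.24, -0.11 and -0.93 on p1-361. It was lower in D361E by 2.59 ± 0.28 on the log2 scale (limma adjusted p = 3.63e-05), and by 2.84 without replicate 4 (adjusted p = 1.25e-05), and a further probe gave -2.80 (adjusted p over probes = 0.0065). D361E differed from VOID by -0.50 (adjusted p = 0.92), and p1-361 was above VOID by 2.09 (adjusted p = 0.00026). Nsmaf, whose protein FAN links a tumour necrosis factor receptor to neutral sphingomyelinase, read 2.78, 2.86, 2.93 and 2.91 on D361E and 3.83, 3.87, 3.76 and 3.45 on p1-361. This difference of -0.86 ± 0.12 was the smallest among the genes called with all arrays (adjusted p = 0.000951), and it was -0.95 without replicate 4 (adjusted p = 0.000483).

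B3gnt5, a glycosyltransferase gene of lacto-series glycolipids, was at least 5.53-fold lower in D361E (limma adjusted p = 0.000852), and Jcad, an endothelial junction protein gene, at least 2.72-fold lower (adjusted p = 0.00517). No D361E array was well above background for either, and all 4 p1-361 arrays were. Without replicate 4 the bounds were 6.55-fold and 2.33-fold (adjusted p = 0.000586 and 0.0203). With normexp the differences were -1.18 and -0.52 (adjusted p = 0.771 and 1), smaller than the bounds. Cpq, a carboxypeptidase gene, read between -6.27 and -5.02 on D361E, where 1 of 4 arrays was above background, and between -2.78 and -2.42 on p1-361 (adjusted p = 0.0134, or 0.027 without replicate 4). No VOID array was well above background for Cpq, and p1-361 was at least 4.89-fold above VOID (adjusted p = 0.00184). Olfm3, an olfactomedin family gene, was lower in D361E by 1.60 ± 0.24 (adjusted p = 0.00179), and by 1.68 without replicate 4 (adjusted p = 0.00342).

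4 further genes were lower in D361E once p1-361 replicate 4 was left out. Podnl1, a leucine-rich repeat protein gene, read 1.07, 0.98 and 0.72 on p1-361 replicates 1 to 3 and -2.34 on replicate 4, with D361E arrays from -1.94 to -0.96. The replicate 4 value was close to the -1.80, -2.24 and -2.08 of p363-549 replicates 1 to 3. With all arrays the difference was -1.65 ± 0.59 (limma adjusted p = 0.761), and without replicate 4 it was -2.47 ± 0.44 (adjusted p = 0.0137). Clu, the extracellular chaperone clusterin, read -0.44, -0.52 and -0.57 on replicates 1 to 3 and -2.07 on replicate 4, and its difference went from -1.39 to -1.78 (adjusted p = 0.00256 without replicate 4). Ubxn11, a UBX domain gene, and Mamdc2, a MAM domain gene, went from -1.58 to -2.12 and from -1.29 to -1.62 (adjusted p = 0.0137 and 0.00842 without replicate 4). For these 4 genes replicate 4 lay on the D361E side of the other p1-361 arrays. They were picked because they passed only without that array, so its place there was chosen for.

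**Figure D4:**
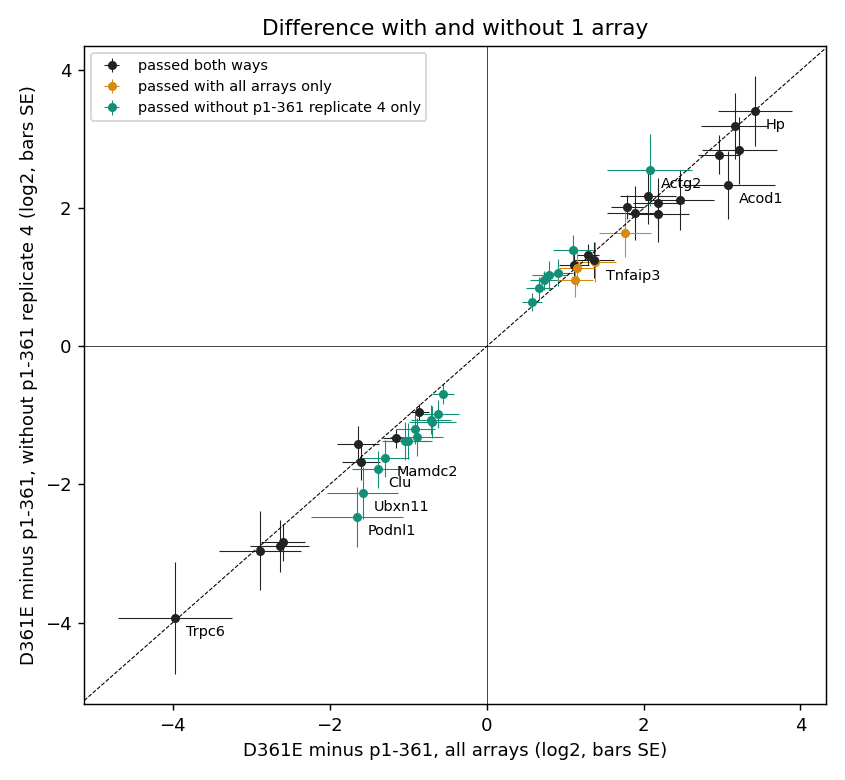
Difference between D361E and p1-361 with all arrays (x axis) and without p1-361 replicate 4 (y axis), both log2 with SE bars, for the 45 genes that passed the test either way. Points lie in the lower left or upper right corner, so no sign changed; Podnl1, Ubxn11, Clu and Mamdc2 lie below the dashed line of equality and passed only without that array.

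Set beside VOID, which both comparisons share, the 18 higher genes fell into 4 kinds. D361E was above VOID and p1-361 did not pass for 9 genes, p1-361 was below VOID and D361E did not pass for 3, neither passed for 5, and both were below VOID for 1, Cd200r2. Of the 8 lower genes, p1-361 was above VOID and D361E did not pass for 4, and neither passed for the other 4. Without p1-361 replicate 4 these numbers were 8, 2, 6 and 1 among the higher genes, and Acod1 was above VOID in both forms. Slc4a5 joined those with D361E above VOID (adjusted p = 0.0405), C1qtnf1 no longer passed in D361E (adjusted p = 0.0506) and Asb2 no longer passed in p1-361 (adjusted p = 0.0616). Among the lower genes p1-361 was then above VOID for 5, B3gnt5 now included (adjusted p = 0.0258), D361E was below VOID for Jcad (adjusted p = 0.0409) and neither passed for 2. WT gave a further reference, whose arrays are likewise shared by both comparisons. Among the 18 higher genes the WT mean was nearer to D361E for 9, D361E was above WT by the test for 4 (Hif1a, Flywch2, Slc4a5 and Ccl3) and p1-361 was below WT for 4 (Prkd3, Tnfaip3, Aif1 and 2610528A11Rik). Among the 8 lower genes p1-361 was above WT for 2, Igsf5 and B3gnt5, and D361E was below WT for none by limma's adjusted p. The WT mean was nearer to D361E for Prkd3 and Tnfaip3 and nearer to p1-361 for Flywch2 and Ccl3.

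**Figure D5:**
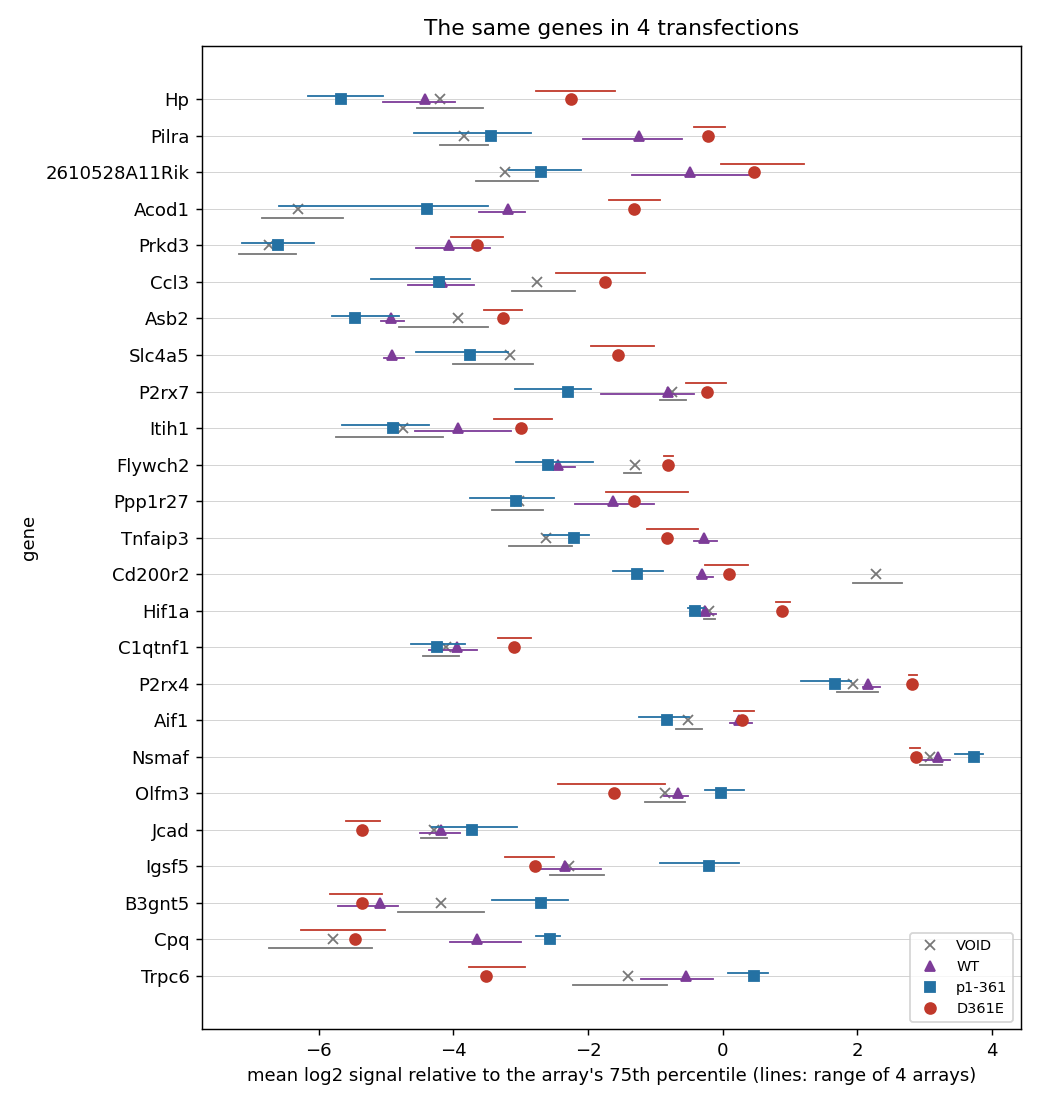
Mean log2 signal relative to the array's 75th percentile (x axis, symbols) and the range of the 4 arrays (lines) in VOID, WT, p1-361 and D361E for 25 of the 26 called genes (y axis). WT lies near D361E for Prkd3 and Aif1, near p1-361 and away from D361E for Flywch2, Ccl3 and Hif1a, and VOID lies above all others for Cd200r2.

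Blood cell markers were examined for the cells the culture could hold. Of 24 measured monocyte and macrophage markers 2 were higher in D361E, Pilra and Acod1, beside 0.12% of all genes, none was lower and 22 did not pass, with a median of 0.36. The arrays did not overlap for 6 of 24 (25%), beside 3.59% of all genes, and for 11 of 24 (45.8%) without replicate 4, beside 9.86%. The summed level of the list, on the linear scale relative to the 75th percentile, ran from 61.9 to 121 on the D361E arrays and from 52.9 to 130 on the p1-361 arrays, where replicate 4 was the lowest. Of the 33 listed markers 17 were well above background on all 8 arrays. Among these, Csf1r, Itgam and Cd68 differed by 0.41 ± 0.41, -0.01 ± 0.41 and 0.04 ± 0.46. Fcgr2b and Clec4e, also among them, differed by 1.52 ± 0.52 and 1.10 ± 0.43 with arrays that did not overlap, and Lyz1 by -0.43 ± 0.25. None of these passed. Of the 24 measured markers 16 were positive, and Lyz2 was the lowest at -0.58. Other listed markers, such as Cd14, Mrc1, Cx3cr1 and C1qa, were not well above background on all arrays of any group. Whether a change in cell makeup has a part in the result was not tested.

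Mast cell and basophil markers had no called member among 15, beside 0.12% of all genes higher and 0.0531% lower, with a median of -0.04. Their arrays did not overlap for 2 of 15 (13.3%), beside 3.59% of all genes, and for 6 of 15 (40%) without replicate 4, beside 9.86%. Mcpt4, a mast cell protease gene, differed by -2.31 ± 0.84 (limma adjusted p = 0.778). Fcer1a, the IgE-binding receptor chain, differed by 1.75 ± 0.66 the other way (adjusted p = 0.808). For Fcer1a 3 of 4 D361E arrays and 1 of 4 p1-361 arrays were well above background, so this value lies near background. Its means were -3.80 in D361E and -5.56 in p1-361, both below the -0.20 of VOID. Granulocyte markers had no called member among 9 (median 0.49), lymphoid markers none among 12 and fibroblast, epithelial and endothelial markers none among 3. The arrays did not overlap for 3 of 12 lymphoid markers (25%), and for 6 of 12 (50%) without replicate 4. For granulocyte markers this was 1 of 9 (11.1%) both ways. Of the 36 listed lymphoid markers 9 were well above background on all 8 arrays, among them Cd3d, Cd79b and Gzmb. So were 3 of the 22 listed fibroblast, epithelial and endothelial markers, Kdr, Acta2 and Pecam1. Others, such as Cd79a of B cells, Epcam and Col1a1, were not well above background on all arrays of any group.

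The gene lists for growth and stress showed medians close to 0. DNA replication genes had a median of 0.00 among 38 (0.19 without replicate 4), mitosis genes -0.05 among 35, oxidative phosphorylation subunits 0.02 among 38, p53 targets 0.10 among 20 and stress response genes -0.03 among 34. None of their members was called, beside 0.12% of all genes higher and 0.0531% lower. The summed level of the replication genes was highest within its group on p1-361 replicate 4, at 489, with the p1-361 arrays running from 249 to 489 and the D361E arrays from 277 to 540.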

How the data were processed

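Total RNA from 24 samples was labelled with Cy3 and read on 1-colour mouse arrays of 44397 spots, 43020 of them not controls. The deposited scanner tables hold a background-subtracted intensity per spot, gProcessedSignal, from Agilent Feature Extraction 10.7.3.1 with mm9 coordinates, per the file headers. Each log2 intensity was set against its array's 75th percentile. Spots of 1 probe were averaged, and uneven spots were left out. A probe was kept where some group had it well above background on each of its 4 arrays (19523 probes). A gene was read by its brightest such probe; names came through RefSeq accessions for 27508 of 39429 probes. Differences were fitted with limma 3.58.1 (R 4.3.3) on all 24 arrays with 1 mean per group, 18 residual degrees of freedom, 2-sided, with Benjamini-Hochberg adjustment and a threshold of 0.05. The fit was tested on simulated data. Genes named are the NF-kB subunits and feedback genes, up to 12 largest called differences each way with non-overlapping arrays (filled from the fit without p1-361 replicate 4), up to 4 called members per list, Abl1 and Bcr; others are said to be chosen after their values were seen, as are the further called genes. The groups, lists and comparisons were chosen with earlier results of these data known. Of the 26 called genes 1 is counted but not reported here. The alternatives are given in the closing section. Precision is limited by the number of arrays.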

Additional observations from a re-analysis of the deposited data

Results flagged for a closer look

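In 126 groups of 4 values, D361E or p1-361 for each of the named or called genes, 11 had 1 array far from the other 3, with a gap to the nearest array that passed the 95% critical value of Dixon's ratio; chance flags about 1 in 20 groups of genes not chosen by their values, which does not apply here. Of these 11, 8 were p1-361 replicate 4, and 6 of the 8 are genes that were included because they passed only without that array, so their place there was chosen for. That array read -6.59 for Acod1 against -3.84 to -3.49 on the other 3, -5.22 for Ccl3 against -4.00 to -3.75, -2.34 for Podnl1 against 0.72 to 1.07, and -2.07 for Clu against -0.57 to -0.44. It also read 0.42 for Me1 against 1.71 to 1.91, -3.14 for St3gal6 against -1.73 to -1.53, 1.83 for Tmem37 against 0.84 to 0.95, and -0.96 for an unnamed probe against 0.55 to 0.83. P2rx7 was low on p1-361 replicate 3, at -3.08 against -2.14 to -1.96. P2rx4 was high on D361E replicate 3, at 2.89 against 2.77 to 2.79, and a transcript named only by its sequence tag was low on D361E replicate 1, at 2.30 against 2.55 to 2.56; both gaps are small next to the differences between the groups.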

How the results depend on the processing

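The signs of the called differences were kept under every alternative that could give a value, so no called difference reversed. The counts of higher and lower genes (18 and 8) moved as follows: 8 and 4 with normexp background correction, 9 and 5 with the filter that each of the 8 arrays be above background, which tested fewer genes, 9 higher with slide as a fixed block, 47 and 29 with runs of title numbers as a fixed block, 32 higher with only the 8 arrays, 86 and 70 without the arrays titled 22, 23 and 24, and 306 and 326 with array weights. With only the 8 arrays and slide as a fixed block limma called 0 and 0 with 1 residual degree of freedom, and 596 genes had an unadjusted p under 0.05. Leaving out 1 array gave 7 to 21 higher and 6 to 20 lower genes. Without the array titled 22, alternatives added after seeing the data gave 53 and 34 with only the 7 arrays left and 78 and 96 with runs as a fixed block, and 13 and 8 with slide as a fixed block. The deposited series value table gave the same 18 and 8. The cause of these moves was not tested unless stated. Pilra, 2610528A11Rik, Flywch2, Igsf5 and Hif1a passed in 26 of 27 alternatives, and C1qtnf1 and P2rx4 in 9 of 26 and 9 of 27. Tnfaip3 passed in 15 of 27 (adjusted p from 0.000579 to 0.873) and Acod1 in 17 of 26. Of the list medians under the alternatives, 711 stayed within 1 SD of the arrays and 18 moved further. The labels state no pairing. The title numbers run through the groups in turn, and with these runs as the block (47 and 29) all 26 calls were kept; the deviations of the D361E and p1-361 arrays of a run correlated at 0.75, -0.11, 0.67 and 0.70 over genes, so not every run paired them. Dim genes near background limit the folds, which are bounds where a group was not above it.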

Other observations

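Genes that lie next to called genes were looked up after the calls were seen, and their values are given as a description. The Itih genes lie together on mm9 chromosome 14. Itih3 read between -3.11 and -2.53 on D361E and -3.80, -4.30, -4.30 and -6.15 on p1-361, and Itih4 read -0.09, 0.03, 0.11 and -0.31 on D361E and -1.87, -1.99, -1.94 and -0.81 on p1-361. The D361E arrays lay above the p1-361 arrays for both, as for Itih1, with differences of 1.71 ± 0.45 and 1.59 ± 0.53 that missed the test (limma adjusted p = 0.224 and 0.603). Pilrb1, the activating counterpart of Pilra on chromosome 5, read -3.27, -2.46, -3.02 and -1.57 on D361E and -5.33, -4.23, -5.31 and -5.47 on p1-361, where 1 of 4 arrays was above background (difference 2.51 ± 0.62, adjusted p = 0.159). Pilrb2 had overlapping groups, since p1-361 replicate 2 read -2.25 against -6.68 to -5.15 on the other 3. Next to P2rx4, Camkk2, a calcium-dependent kinase gene, differed by 0.21 ± 0.19.

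In the chemokine cluster of chromosome 11, Ccl6 read -1.71, -1.18, -1.41 and -0.87 on D361E and -2.87, -2.44, -2.93 and -1.99 on p1-361, with no overlap (difference 1.26 ± 0.36, limma adjusted p = 0.315). Ccl9 and Ccl4 differed by 0.60 ± 0.52 and 0.85 ± 0.71, and their groups overlapped. Among the genes that passed only without p1-361 replicate 4 were Actg2, a smooth muscle actin gene, at 2.56 ± 0.52 (adjusted p = 0.0367), Zbtb32, a zinc finger repressor gene, at 1.39 ± 0.22 (adjusted p = 0.00416), Lamb3, a laminin chain gene, at 1.07 ± 0.19 (adjusted p = 0.0137), and Me1, which encodes malic enzyme, at -1.06 ± 0.21 (adjusted p = 0.0281).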
